A study of Mus musculus with 38 samples.

Results

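Immune checkpoint receptors and their ligands were followed through omental tumors and malignant cell lines of a pair of mouse models of high-grade serous ovarian cancer. The 10 genes were taken by symbol, through their Ensembl mouse identifiers, from the 55487 genes of the tumor and cell line tables, and all 10 were found in both. 6 encode receptors (Pdcd1, Ctla4, Lag3, Havcr2, Tigit and Btla) and 4 encode ligands (Cd274, Pdcd1lg2, Cd80 and Cd86). 60577 tumors were grown in FVB mice and HGS2 tumors in C57BL/6J mice, in female wild-type animals injected intraperitoneally with malignant cells at 8 to 9 weeks of age. Treated mice received 3 weekly doses of carboplatin at 20 mg/kg with paclitaxel at 10 mg/kg, starting 21 days (60577) or 49 days (HGS2) after injection. Tumors were collected 1 day (TP1), 7 days (TP2) or 21 days (TP3) after the last dose, with control tumors at TP1 and TP2 but not at TP3. The methods give the controls as mice injected with the drugs' vehicle. The 60577 groups held 3 TP1 control, 3 TP1 treated, 3 TP2 control, 4 TP2 treated and 4 TP3 treated tumors. The HGS2 groups held 3 TP1 control, 3 TP1 treated, 4 TP2 control, 3 TP2 treated and 4 TP3 treated tumors, of which TP3 treated replicate 1 was left out of the tests reported because the study's tables do not show it. Its values are drawn beside the others in the figures of levels and given in the text for some members only. A fit of all 17 HGS2 tumors gave the same number of members called in each comparison. The same 2 malignant cell lines were sequenced in monoculture, untreated, with 2 libraries each. Each model is 1 cell line in 1 mouse strain, so line, strain and age of the tumor cannot be told apart in any comparison between models.

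Checkpoint receptors are carried mainly by T cells and dampen their activation when a ligand is bound. Pdcd1 encodes PD-1, whose ligands PD-L1 (Cd274) and PD-L2 (Pdcd1lg2) can be displayed by tumor cells, macrophages and dendritic cells. Ctla4 encodes a receptor that competes with the costimulatory receptor CD28 for CD80 and CD86 on antigen-presenting cells. Lag3, Havcr2 (TIM-3), Tigit and Btla encode further inhibitory receptors of T cells, of which Havcr2 is also found on myeloid cells and Btla is abundant on B cells.

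Levels are given as CPM, counts scaled to the library total, after TMM scaling, which adjusts each library to a common composition. A gene was called at an adjusted p below 0.05 and a change above 1 on the log2 scale, with edgeR's quasi-likelihood test and Benjamini-Hochberg adjustment over all genes tested, and every adjusted p below comes from that test unless another tool is named. In bulk tumors, fewer cells of a type and less RNA per cell cannot be told apart. Total counts ran from 19456375 to 49299442 in the 33 tumors used and from 31633121 to 42461995 in the cell lines. 3 of the HGS2 tumors used (TP1 control replicate 3, TP2 control replicate 2 and TP3 treated replicate 2) held over 10000 CPM of 6 pancreatic acinar genes, against at most 1535 in the other tumors. One 60577 control (TP2 replicate 2) differed from the other 60577 controls in several checkpoint genes, and results that rest on it are given with and without it.

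Stretches upstream of the genes are shown for Cd274 and Pdcd1lg2, which lie next to each other on chromosome 19, for Ctla4, Tigit and Btla, which rose together in treated 60577 tumors, and for Pdcd1, which did not. The 250 bases before the transcription start are from RefSeq (GRCm38.p6), where 8 of the 10 genes were found. Capitals mark the letters GAAANNGAA on either strand (TTCNNTTTC on the other), the core of an interferon-stimulated response element.
Cd274, chr19:29367188-29367437, plus strand: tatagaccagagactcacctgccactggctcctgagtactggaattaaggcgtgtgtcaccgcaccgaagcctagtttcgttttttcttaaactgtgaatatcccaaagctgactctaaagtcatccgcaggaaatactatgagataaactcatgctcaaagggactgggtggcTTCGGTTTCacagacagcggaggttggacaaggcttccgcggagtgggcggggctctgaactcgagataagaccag
Pdcd1lg2, chr19:29410669-29410918, plus strand: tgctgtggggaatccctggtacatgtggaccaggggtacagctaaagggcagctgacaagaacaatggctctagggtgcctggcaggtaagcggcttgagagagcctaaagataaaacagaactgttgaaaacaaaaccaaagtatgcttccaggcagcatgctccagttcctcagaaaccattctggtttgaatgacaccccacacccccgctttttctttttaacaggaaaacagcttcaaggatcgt
Ctla4, chr1:60908775-60909024, plus strand: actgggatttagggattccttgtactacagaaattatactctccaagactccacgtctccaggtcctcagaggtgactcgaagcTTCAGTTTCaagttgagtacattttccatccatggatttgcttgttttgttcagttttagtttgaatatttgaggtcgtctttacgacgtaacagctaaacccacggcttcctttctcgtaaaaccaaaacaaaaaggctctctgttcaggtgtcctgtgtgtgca
Tigit, chr16:43664185-43664434, minus strand: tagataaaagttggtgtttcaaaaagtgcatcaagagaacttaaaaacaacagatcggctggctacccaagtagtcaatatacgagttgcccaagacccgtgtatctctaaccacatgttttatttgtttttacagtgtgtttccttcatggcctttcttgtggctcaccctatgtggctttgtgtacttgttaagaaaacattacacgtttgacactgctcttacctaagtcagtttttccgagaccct
Btla, chr16:45224087-45224336, plus strand: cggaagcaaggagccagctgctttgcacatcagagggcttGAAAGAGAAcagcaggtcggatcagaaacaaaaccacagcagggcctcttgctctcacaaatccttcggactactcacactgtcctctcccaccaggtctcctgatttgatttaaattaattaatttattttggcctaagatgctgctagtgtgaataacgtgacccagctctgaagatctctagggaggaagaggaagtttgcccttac
Pdcd1, chr1:94052554-94052803, minus strand: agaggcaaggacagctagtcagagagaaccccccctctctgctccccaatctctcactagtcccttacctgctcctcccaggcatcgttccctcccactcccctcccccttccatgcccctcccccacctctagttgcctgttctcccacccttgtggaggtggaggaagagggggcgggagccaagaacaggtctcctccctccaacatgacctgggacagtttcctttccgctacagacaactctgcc
These letters were found in Cd274, 76 to 68 bases before the start, in Ctla4, 166 to 158 bases before it, and in Btla, 210 to 202 bases before it, and in 7.13% of all 32851 promoters of the same length. Neither the GAS motif TTCNNNGAA, held by 7.02% of all promoters, nor the AP-1 motif TGANTCA, held by 6.75%, occurred in these 6 stretches. AP-1 letters occurred once each in the Havcr2 and Cd80 promoters. A match here describes letters only.

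In control tumors the members were ordered by level per transcript length (RPKM), the one scale on which genes can be compared with each other. In the 6 60577 controls Pdcd1 led at 10.3 ± 2.56 RPKM (SD, n = 6), followed by Cd274 at 4.93 ± 2.72. Havcr2, Lag3 and Cd86 followed at 2.68 ± 0.780, 2.49 ± 0.881 and 2.13 ± 0.672. Pdcd1lg2, Btla, Tigit, Cd80 and Ctla4 lay between 0.946 and 0.474. In the 7 HGS2 controls Havcr2 led at 5.82 ± 2.68 RPKM (SD, n = 7), followed by Cd274 at 4.51 ± 2.68, Cd86 at 4.16 ± 1.87, Lag3 at 3.93 ± 1.96 and Pdcd1 at 3.18 ± 2.62. Tigit, Btla, Cd80, Pdcd1lg2 and Ctla4 ran from 2.84 down to 0.670. The ranges of every pair of neighbors in both orders overlapped.

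Tested directly, control tumors of the models differed in 4 receptors. Pdcd1 was 3.25-fold lower in HGS2 than in 60577 controls (log2 fold change -1.70, SE 0.388, adjusted p = 0.000731). It read 20.7, 21 and 21.9 CPM in the TP1 and 21.5, 10.1 and 24.0 CPM in the TP2 controls of 60577. In HGS2 it read 16.9, 4.31 and 4.38 CPM at TP1 and 4.42, 0.925, 6.80 and 5.26 CPM at TP2. The groups overlapped only through the lowest 60577 control and the highest HGS2 control. Tigit was 5.12-fold higher in HGS2 controls (2.36, SE 0.567, adjusted p = 0.00122), Havcr2 2.19-fold (1.13, SE 0.281, adjusted p = 0.00157) and Btla 3.22-fold (1.69, SE 0.632, adjusted p = 0.0280). Of all genes tested, 13.2% were called higher and 8.81% lower in HGS2, against 3 and 1 of the 10 members. Cd86 and Cd80 were higher by 0.97 and 0.98 on the log2 scale (adjusted p = 0.00223 and 0.0420), under the limit on the fold. 4 of 6 T cell genes and 7 of 7 macrophage genes were also called higher in HGS2 controls. The 7 macrophage genes summed to 1265 to 2830 CPM there against 401 to 1078 CPM in 60577 controls. With the macrophage genes as a covariate Havcr2 differed by -0.24 and 1 of the 10 members was called in place of 4. With the T cell genes as a covariate Havcr2 (0.81) and Btla (0.48, adjusted p = 0.512) were not called, while Pdcd1 (-2.61, adjusted p = 4.17e-07) and Pdcd1lg2 (-1.81, adjusted p = 0.000731) were called lower in HGS2. Havcr2 was no longer called without HGS2 TP1 control replicate 1 (0.88) or without 60577 TP2 control replicate 2 (1.00), and the Btla call was lost with limma-voom (1.28, adjusted p = 0.200), with replicate numbers as a block (1.46, adjusted p = 0.0755) and without any 1 of 6 libraries. These were HGS2 TP1 control replicate 1 and TP2 control replicate 3 (0.86), and 60577 TP1 control replicates 1 and 3 and TP2 control replicates 2 and 3. Cd80 was called without HGS2 TP1 control replicate 2 or 3, HGS2 TP2 control replicate 1 or 2, or 60577 control replicate 2 of TP1 or TP2, with values of 1.02 to 1.51. Cd86 was called without HGS2 TP1 control replicate 2 or 3, HGS2 TP2 control replicate 2, 60577 TP1 control replicate 2 or 60577 TP2 control replicate 1, with values of 1.004 to 1.144, and with replicate numbers as a block (1.008).

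**Figure D1:**
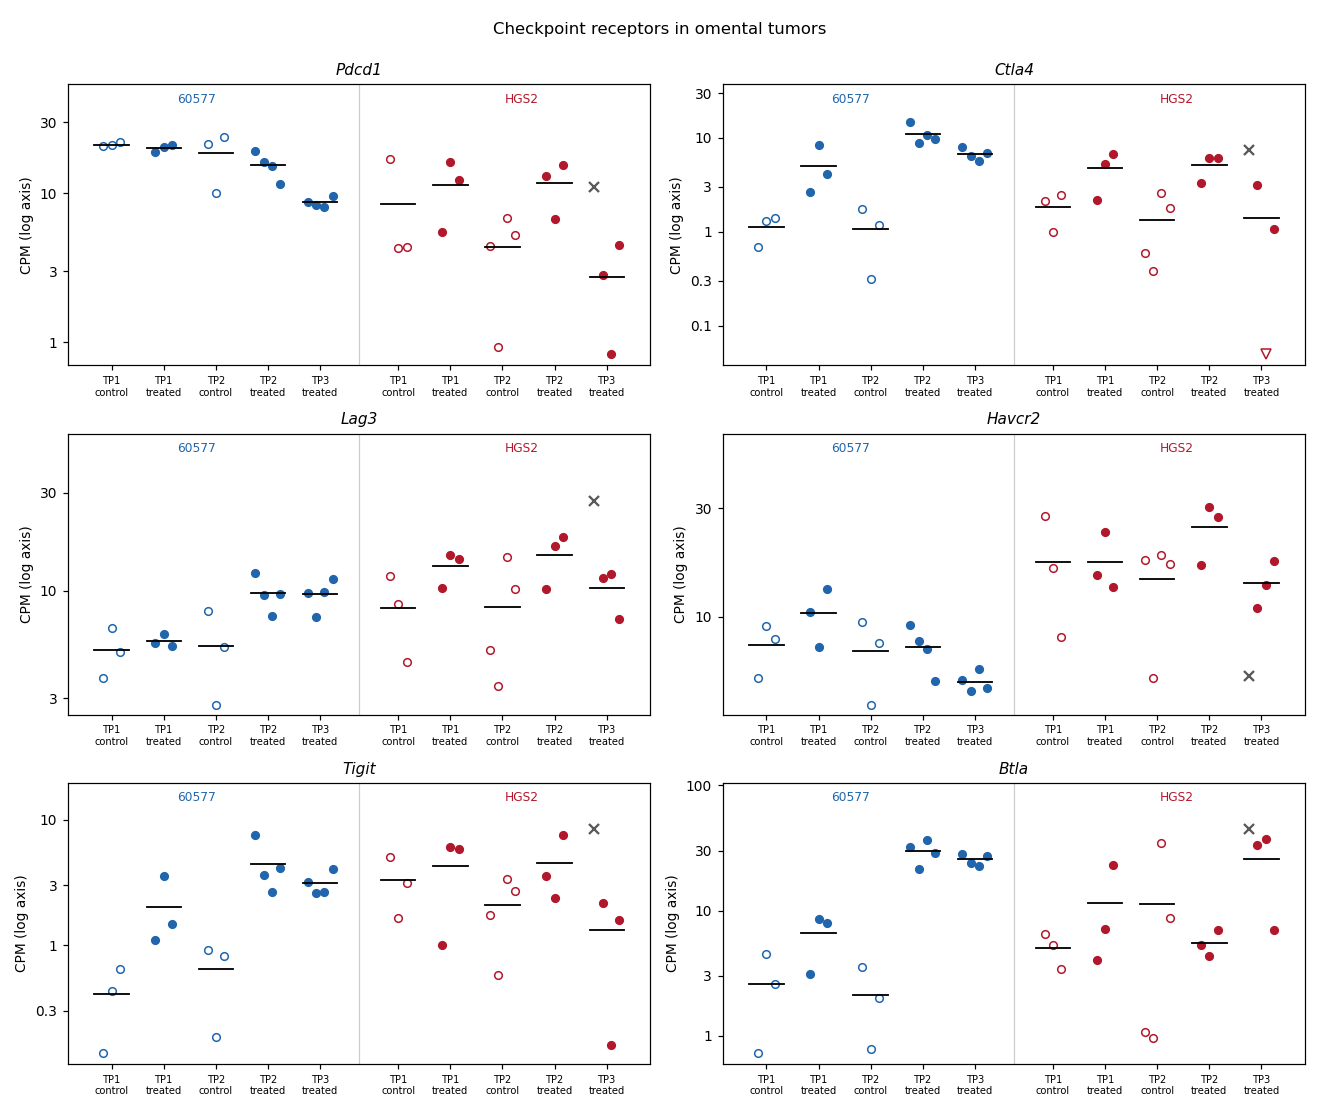
CPM of the 6 receptors (log axis) in each omental tumor, by model, time point and treatment. Open circles are controls, filled circles treated tumors, bars group means, crosses the HGS2 TP3 treated replicate 1 left out of the fits, and the open triangle at the bottom of the Ctla4 panel a tumor with no count. Ctla4, Tigit and Btla sit above all TP2 controls in each TP2 treated 60577 tumor, while Pdcd1 in 60577 sits lowest at TP3.

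One day after the last dose, 60577 tumors held more Ctla4, Tigit, Cd274 and Cd80 transcript than the controls, while Pdcd1 and Lag3 passed no test. 4 of the 10 members were called higher and 0 lower, against 9.65% of all genes called higher, and the median change of the members was 1.38 on the log2 scale against -0.00 over all genes. Cd80, the ligand shared by CD28 and CTLA-4, moved most. It read 0.554, 2.05 and 0.978 CPM in the TP1 controls and 8.78, 9.08 and 12.5 CPM in the treated tumors. These groups did not overlap, and the change was 8.57-fold (log2 fold change 3.10, SE 0.519, adjusted p = 0.000433). Cd274 read 9.35, 15.5 and 14.3 CPM in controls and 35.3, 29.3 and 38.6 CPM in treated tumors, a 2.65-fold change (1.41, SE 0.319, adjusted p = 0.00373). Here too every treated tumor lay above every control.

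Among the receptors, Ctla4 read 0.693, 1.3 and 1.4 CPM in the TP1 controls and 2.63, 8.31 and 4.14 CPM in the treated tumors (log2 fold change 2.15, SE 0.490, adjusted p = 0.00378). Tigit read 0.139, 0.433 and 0.652 CPM in the controls and 1.09, 3.53 and 1.47 CPM in the treated tumors (2.30, SE 0.619, adjusted p = 0.0103). Both sets of groups were separate, although TP1 treated replicate 2 was the highest in each gene and without it Tigit was not called (1.64, adjusted p = 0.0619), nor was it with the acinar genes as a covariate (1.84, adjusted p = 0.0576). Btla (1.34, adjusted p = 0.0661) and Pdcd1lg2 (1.52, adjusted p = 0.0688) had overlapping groups and were not called by edgeR, but were by DESeq2 (adjusted p = 0.0286 and 0.0298). Without TP1 treated replicate 1 both were called (1.69 for Btla, 1.9 for Pdcd1lg2), and Btla was also called without TP1 control replicate 2 (1.99). Lag3 and Havcr2 gave 0.17 and 0.48 (adjusted p = 0.714 and 0.237), Cd86 0.12 and Pdcd1 -0.07 (adjusted p = 0.853). The 6 T cell genes summed to 4.71 to 14.6 CPM in these controls and 19.6 to 58.9 CPM in the treated tumors, and 5 of the 6 were called higher. With their mean as a covariate, Cd80 (3.62, adjusted p = 0.00108) and Cd274 (1.73, adjusted p = 0.00551) were still called, while Ctla4 (0.51, adjusted p = 0.262) and Tigit (0.36, adjusted p = 0.867) were not. Fitted together with the HGS2 tumors, Ctla4 and Tigit were not called either (adjusted p = 0.0810 and 0.0533).

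**Figure D2:**
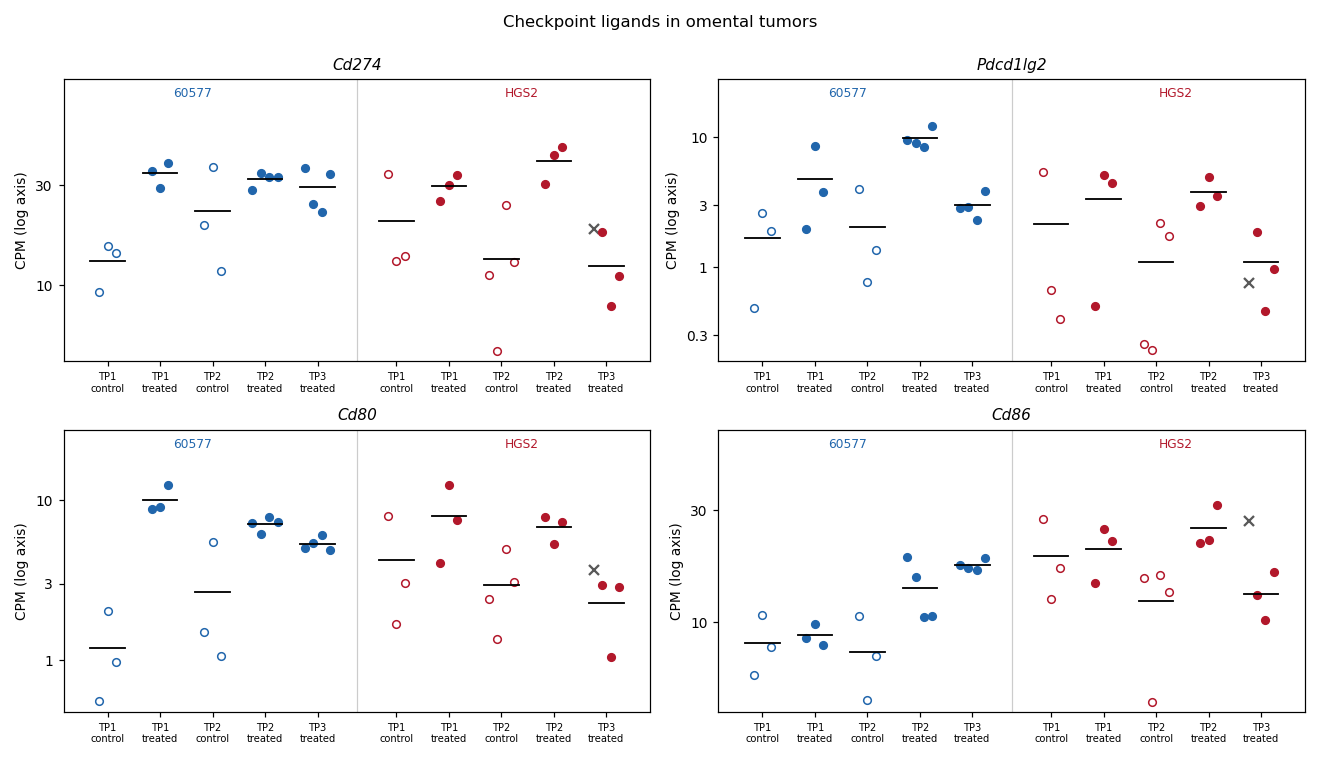
CPM of the 4 ligands (log axis) in each omental tumor, drawn as for the receptors: open circles controls, filled circles treated tumors, bars group means, crosses the tumor left out of the fits. In 60577 at TP1 the treated tumors read 29.3 to 38.6 CPM of Cd274 and 8.78 to 12.5 CPM of Cd80, above all TP1 controls, and Pdcd1lg2 was highest in the TP2 treated tumors.

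At TP2 Btla and Ctla4 changed most. In 60577 tumors 5 of the 10 members were called higher (Ctla4, Tigit, Btla, Pdcd1lg2 and Cd80) and 0 lower, against 14.8% of all genes called higher, with a median change of 1.14 against 0.03 over all genes. Btla, which binds the herpesvirus entry mediator encoded by Tnfrsf14, read 3.53, 0.776 and 2.01 CPM in the controls and 32.2, 21.6, 36.5 and 28.7 CPM in the treated tumors. The change was 14.0-fold, the largest among the members (3.81, SE 0.555, adjusted p = 6.57e-05). Ctla4 read 1.73, 0.311 and 1.19 CPM in the controls and 14.8, 8.85, 10.8 and 9.85 CPM in the treated tumors, a 10.3-fold change (3.36, SE 0.490, adjusted p = 6.68e-05). Tigit, a receptor for the poliovirus receptor PVR and for nectins, read 0.916, 0.186 and 0.822 CPM in the controls and 7.52, 3.60, 2.65 and 4.12 CPM in the treated tumors (2.81, SE 0.577, adjusted p = 0.000895). In all 3 receptors each treated tumor lay above each control.

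Of the ligands, Pdcd1lg2 read 3.99, 0.776 and 1.36 CPM in the TP2 controls and 9.52, 9.07, 8.39 and 12.1 CPM in the treated 60577 tumors (2.24, SE 0.592, adjusted p = 0.00483). Cd80 read 1.5, 5.47 and 1.07 CPM in the controls and 7.23, 6.15, 7.85 and 7.29 CPM in the treated tumors (1.38, SE 0.460, adjusted p = 0.0182). The treated tumors of both ligands were again above all controls, but the margin for Cd80 was set by control replicate 2, without which the change was 2.45. The Cd80 call was lost without control replicate 1 (1.09, adjusted p = 0.0782) or 3 (1.01, adjusted p = 0.0710). Cd274 read 19.5, 36.7 and 11.8 CPM in the controls and 28.7, 34.2, 33 and 32.9 CPM in the treated tumors, so that control replicate 2 lay above all treated tumors. It was not called (0.49, adjusted p = 0.165), but was without that replicate (1.03, adjusted p = 0.00437).

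Lag3, a receptor for MHC class II, read 7.95, 2.79 and 5.34 CPM in the TP2 controls and 12.1, 9.50, 7.51 and 9.69 CPM in the treated 60577 tumors. Its change of 0.85 passed the adjusted test (adjusted p = 0.0193) but not the limit on the fold, and without control replicate 1 it was called (1.25, adjusted p = 0.00260). Cd86 read 10.6, 4.63 and 7.19 CPM in controls and 19.0, 15.5, 10.5 and 10.7 CPM in treated tumors, with a change of 0.90 (adjusted p = 0.0108) that was likewise under the limit. It was called without control replicate 1 (1.23, adjusted p = 0.00247) or without treated replicate 3 (1.01) or 4 (1.004). Pdcd1 gave -0.25 (adjusted p = 0.336) and Havcr2 0.05 (adjusted p = 0.895). All 6 T cell genes, 4 of 4 B cell genes and 5 of 6 dendritic cell genes were called higher in the same comparison, and 5 of 5 epithelial genes tested were called lower. The T cell genes summed to 4.81 to 18 CPM in the controls and 73.7 to 128 CPM in the treated tumors, and the B cell genes to 2.05 to 15.8 and 52.8 to 138 CPM. With the T cell genes as a covariate 0 of the 10 members were called, Ctla4 changing by 0.69 (adjusted p = 0.240), Btla by 1.16 (adjusted p = 0.207) and Cd80 by 2.65 (adjusted p = 0.0838). Tigit (-0.56) and Pdcd1lg2 (-0.87) turned direction in that fit (adjusted p = 0.506 and 0.268). The part of B cell and dendritic cell RNA was not tested.

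At TP3, with the TP2 controls as the reference because no TP3 controls exist, treatment and time cannot be told apart. 4 members were called higher and 1 lower in 60577, against 14.2% and 10.2% of all genes. Pdcd1 was the one that fell. It read 8.70, 8.39, 8.10 and 9.56 CPM in the TP3 tumors, below 10.1 CPM in the lowest TP2 control (log2 fold change -1.08, SE 0.222, adjusted p = 0.000889). The change was under the limit on the fold without TP2 control replicate 1 (-0.95) or 3 (-0.85), with limma-voom (-0.96) and with replicate numbers as a block (-0.99), and not called when both models were fitted together (adjusted p = 0.0953). Btla (3.61, SE 0.551, adjusted p = 7.53e-05), Ctla4 (2.66, SE 0.479, adjusted p = 0.000305) and Tigit (2.31, SE 0.570, adjusted p = 0.00330) were still higher than in the controls. Btla read 28.4, 24.0, 22.8 and 27.3 CPM in the TP3 tumors, Ctla4 8.09, 6.34, 5.61 and 6.87 CPM and Tigit 3.2, 2.62, 2.68 and 4.07 CPM, all above every control. Cd86 was called for the first time, at 17.5, 17.1, 16.7 and 18.7 CPM (1.24, SE 0.272, adjusted p = 0.00145), though not without TP2 control replicate 2 (0.99). With the macrophage genes as a covariate neither Cd86 nor Tigit was called. The 7 macrophage genes summed to 1370 to 1641 CPM in the TP3 tumors and 401 to 1078 CPM in the TP2 controls. Lag3 gave 0.85 (adjusted p = 0.0210), Cd80 0.99 (adjusted p = 0.0814), Pdcd1lg2 0.56, Cd274 0.38 and Havcr2 -0.44. Without TP2 control replicate 2, Cd80 was called (2.06, adjusted p = 0.000483), and without TP2 control replicate 1, Lag3 was (1.26, adjusted p = 0.00249). With the T cell genes as a covariate, Pdcd1 (-2.04, adjusted p = 0.00386) and Pdcd1lg2 (-2.85, adjusted p = 0.00588) were called lower and no member was called higher.

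**Figure D3:**
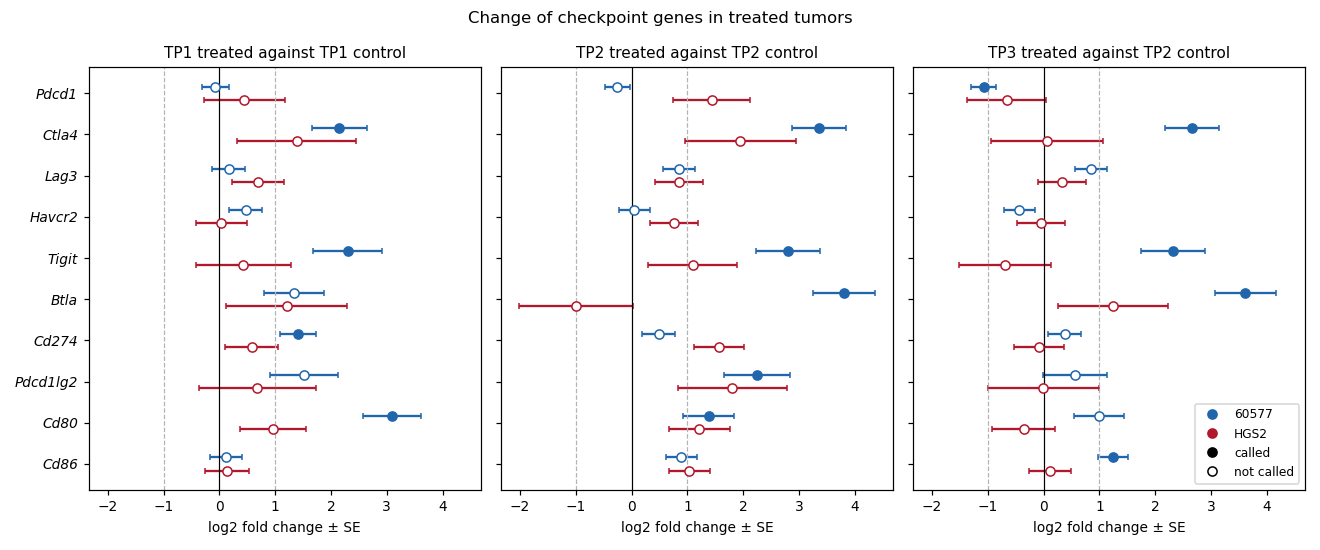
Log2 fold change with its standard error for the 10 members in treated against control tumors at TP1, TP2 and TP3 (against TP2 controls), in 60577 and HGS2. Filled points were called and dashed lines mark a change of 1 in either direction. The called points are all from 60577, and Pdcd1 at TP3 is the one called point below 0.

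Between time points of the treated 60577 tumors, Btla rose from TP1 to TP2. It read 3.09, 8.59 and 8.02 CPM at TP1 and 21.6 to 36.5 CPM at TP2, with no overlap (2.17, SE 0.502, adjusted p = 0.0123). It was the one member called higher of 10, against 3.58% of all genes, and it was not called without TP1 treated replicate 1 (1.83, adjusted p = 0.0728). It was likewise not called when both models were fitted together (adjusted p = 0.133). Without TP1 treated replicate 2 the count was 3, Ctla4 (1.70) and Tigit (1.80) being called as well. From TP2 to TP3 Pdcd1lg2 fell. It read 2.88, 2.89, 2.32 and 3.89 CPM at TP3, below the 8.39 to 12.1 CPM of TP2 (-1.69, SE 0.518, adjusted p = 0.0232). It was the one member called lower of 10, against 4.4% of all genes, and the adjusted p rose to between 0.0524 and 0.0652 on leaving out TP2 treated replicate 4 or TP3 treated replicate 1, 2 or 3, and to 0.116 with both models fitted together. Pdcd1 fell by 0.82 on the log2 scale over the same interval (adjusted p = 0.0103), under the limit on the fold. Between the TP2 and TP1 controls edgeR called 0 of 10 members and 0% of all genes, with 2 members and 1501 genes at an unadjusted p below 0.05. There DESeq2 called 70 genes and limma-voom 0 genes, neither of them calling a member, with 2 and 1 members at an unadjusted p below 0.05.

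The receptors did not keep a fixed ratio to the 6 T cell genes. In 60577 controls, log2 CPM of Pdcd1 minus the mean log2 CPM of the T cell genes was 3.91 ± 0.75 (SD, n = 6). It was 2.03 ± 0.76 in TP1 treated, 0.23 ± 0.35 in TP2 treated and -0.82 ± 0.06 in TP3 treated tumors. The Pdcd1 value was lower in each later group of treated tumors than in the controls. Lag3 went from 1.98 ± 0.50 in controls to -0.44 ± 0.18 at TP2 and -0.69 ± 0.19 at TP3, and Havcr2 from 2.47 ± 0.57 to -0.85 ± 0.37 and -1.56 ± 0.26. Ctla4 lay at -0.28 ± 0.32 in controls, -0.11 ± 0.08 in TP1 treated and -0.26 ± 0.22 in TP2 treated tumors, and at -1.20 ± 0.21 at TP3. Btla ranged between means of 0.30 and 1.16. In HGS2 controls the Pdcd1 value was 0.58 ± 0.65 (SD, n = 7).

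**Figure D4:**
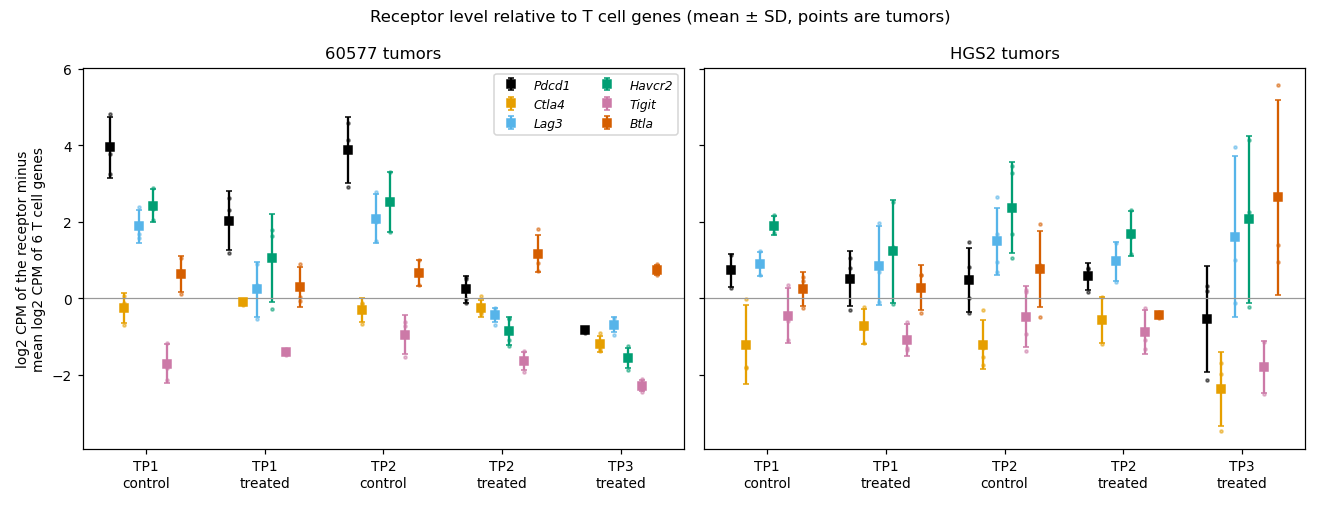
Log2 CPM of each receptor minus the mean log2 CPM of 6 T cell genes (Cd3d, Cd3e, Cd3g, Cd247, Cd2 and Cd5), by group. Squares with bars are group means with SD, and dots are tumors. In 60577, Pdcd1 goes from 3.91 in controls to -0.82 at TP3, while Ctla4 stays near 0 until TP2.

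In HGS2 tumors no checkpoint gene was called between treated and control tumors. At TP1 edgeR called 0 of 10 members and 0% of all genes, with 0 members and 413 genes at an unadjusted p below 0.05. There DESeq2 called 1 gene and limma-voom 0 genes, neither of them calling a member. All 10 members had a positive log2 fold change, with a median of 0.63 against 0.00 over all genes. Cd274 read 34.2, 13.1 and 13.8 CPM in the TP1 controls and 25.4, 30.2 and 33.5 CPM in the treated tumors, so control replicate 1 lay above all treated tumors. The same tumor was the highest of its group for Pdcd1, Lag3, Havcr2, Tigit, Btla, Pdcd1lg2, Cd80 and Cd86.

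At TP2 edgeR called 0 of 10 members and 0% of all genes in HGS2, with 3 members and 1233 genes at an unadjusted p below 0.05. There DESeq2 called 8 genes and limma-voom 0 genes, again none of them members, with 5 and 7 members at an unadjusted p below 0.05. 9 of the 10 members had a positive change, with a median of 1.16 against -0.02 over all genes. In Ctla4, Cd274, Pdcd1lg2, Cd80 and Cd86 all treated tumors lay above all controls. How many of all genes were separated in this way was not counted, so the separation describes these genes only. Cd274 had the smallest p: it read 11.3, 4.86, 24.2 and 13.0 CPM in the controls and 30.6, 41.8 and 45.6 CPM in the treated tumors (1.57, SE 0.442, unadjusted p = 0.00335 and adjusted p = 0.588 with edgeR). Cd86 read 15.4, 4.55, 15.9 and 13.5 CPM in the controls and 21.7, 22.3 and 31.7 CPM in the treated tumors (1.03, adjusted p = 0.601). Ctla4 read 0.595, 0.385, 2.61 and 1.78 CPM in the controls and 3.28, 6.15 and 6.06 CPM in the treated tumors (1.95, adjusted p = 0.674). Cd80 gave 1.22 and Pdcd1lg2 1.80, and the lowest control in each of these 5 genes was replicate 2, one of the tumors rich in acinar RNA. Btla alone was negative (-0.998, SE 1.02, adjusted p = 0.807). It read 1.08, 0.964, 34.5 and 8.66 CPM in the controls and 5.31, 4.37 and 6.96 CPM in the treated tumors, so the sign rested on control replicate 3. The 4 B cell genes summed to 6.58 to 269 CPM in these controls and 12.9 to 31.1 CPM in the treated tumors.

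At TP3 no checkpoint gene was called in HGS2 against either reference. Against TP2 controls edgeR called 0 of 10 members and 0% of all genes, with 0 members and 406 genes at an unadjusted p below 0.05. There DESeq2 called 5 genes and limma-voom 0 genes, with 0 and 1 members at an unadjusted p below 0.05. Against TP2 treated tumors edgeR called 0 of 10 members and 0% of all genes, with 4 members and 1690 genes at an unadjusted p below 0.05. There DESeq2 called 105 genes and limma-voom 0 genes, none of them members, with 6 members each at an unadjusted p below 0.05. In the tumors used, 7 members lay below all TP2 treated tumors and Btla above them. This separation of Pdcd1, Ctla4, Tigit and Cd86 did not hold with TP3 treated replicate 1 counted in. That tumor read 10.9, 7.44, 8.42 and 27.0 CPM of them, against 6.75, 3.28, 2.38 and 21.7 CPM in the lowest TP2 treated tumor. The share of all genes separated in this way was not counted, so this describes the members only. Cd274 read 18, 8.01 and 11.1 CPM in the TP3 tumors used (-1.66, SE 0.486, unadjusted p = 0.00435 and adjusted p = 0.411 with edgeR) and Pdcd1 2.84, 0.826 and 4.52 CPM (-2.10, SE 0.764, adjusted p = 0.416). Btla read 33.4, 37.4 and 7 CPM (2.24, SE 1.11, adjusted p = 0.503). TP3 treated replicate 1, left out, read 18.5 CPM of Cd274, 10.9 CPM of Pdcd1 and 44.9 CPM of Btla, with 181 CPM of the T cell genes and 609 CPM of the B cell genes in sum. edgeR called 0 of 10 members and 0% of all genes between TP2 and TP1 treated HGS2 tumors, and likewise 0 of 10 members and 0% of all genes between TP2 and TP1 controls, with 152 and 569 genes and 0 members at an unadjusted p below 0.05. There DESeq2 called 1 and 7 genes, and limma-voom 0 in both.

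Whether treatment moved the members differently in HGS2 and in 60577 was tested as 1 contrast per time point. At TP1 0 of 10 members were called by edgeR, against 1.45% of all genes. 1 member, Cd80, had an unadjusted p below 0.05, with a change that was smaller in HGS2 by 2.16 on the log2 scale (SE 0.813, adjusted p = 0.146). DESeq2 and limma-voom also gave 1 member at an unadjusted p below 0.05 and called 721 and 214 genes. At TP2 1 member was called lower, Btla, against 3.21% of all genes (-4.84, SE 1.26, adjusted p = 0.0196). Its change was 3.81 in 60577 and -0.998 in HGS2. The call was lost without 60577 TP2 control replicate 2 (-4.44, adjusted p = 0.0715) and with limma-voom (-3.64, adjusted p = 0.0905). It was also lost with replicate numbers as a block and with the T cell genes as a covariate. The value was -3.18 to -5.45 on leaving out 1 library at a time. 2 of the 4 B cell genes, Cd79a and Cd79b, were also called lower in this comparison. For Pdcd1 the difference was 1.68, for Cd274 1.06 (SE 0.557, adjusted p = 0.207), for Ctla4 -1.42 (SE 1.11, adjusted p = 0.400) and for Tigit -1.71 (SE 1.03, adjusted p = 0.268). These differences were not called, but those of Pdcd1 and Cd274 were with the T cell genes as a covariate.

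Among the 4 ligands, the malignant lines in monoculture expressed Cd274 alone at over 1 CPM, taken over both libraries of a line. Cd274 had 145 and 226 counts in the 60577 libraries (3.97 and 5.07 CPM) and 56 and 35 counts in the HGS2 libraries (1.89 and 0.944 CPM). Over both libraries the 60577 level was 4.58 CPM (95% exact Poisson interval 4.12 to 5.07) and the HGS2 level 1.36 CPM (1.10 to 1.67). Intervals and limits here cover counting error only, and the labels do not say whether the libraries of a line came from separate cultures, so its p-values may measure technical spread. Both 60577 libraries lay above both HGS2 libraries, but the difference of -1.68 (SE 0.465) was not called by edgeR (unadjusted p = 0.0132, adjusted p = 0.0610), which tested 1 member, called 0, and called 15.9% of all genes tested. DESeq2 called it (-1.65, adjusted p = 0.0189), as did edgeR without a filter on low counts (-1.65, adjusted p = 0.00169). Without HGS2 replicate 1 the difference was -2.26 (adjusted p = 0.0155), a fit in which the lone HGS2 library is assumed to vary like the 60577 libraries.

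The CD28 and CTLA-4 ligands were at or near 0 in both lines. Cd86 had 0 counts in all 4 libraries, where 3 counts would have been 0.0370 CPM over both 60577 libraries and 0.0449 CPM over both HGS2 libraries, and the exact Poisson intervals end at 0.0455 and 0.0552 CPM. Cd80 had 0 and 1 counts in 60577 and 5 and 5 counts in HGS2, and Pdcd1lg2 had 2 counts in 1 60577 library and 0 in the others. In tumors, by contrast, Cd86 read 4.55 CPM or more in each library used. The tumor and line tables were normalized separately, so these levels are set side by side with no test. Control 60577 tumors read 9.35 to 36.7 CPM of Cd274, above the 3.97 and 5.07 CPM of the 60577 line.

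Of 7 ligands of the other receptors, Nectin2 and Lgals9 had the highest levels in the lines and Fgl1 and Ceacam1 the lowest. Per length, Nectin2, a ligand of TIGIT and of its activating counterpart CD226, read 64.3 and 52.9 RPKM in 60577 and 76.6 and 49 RPKM in HGS2, against 1.10, 1.40, 0.521 and 0.261 RPKM of Cd274 in the same libraries. Lgals9, encoding galectin-9, a ligand of TIM-3, read 58.4 and 52.4 RPKM in 60577 and 77.4 and 41.3 RPKM in HGS2. Pvr read 7.06, 6.76, 5.90 and 4.72 RPKM, Nectin3 1.73, 1.74, 1.40 and 2.01 RPKM, and Fgl1, a ligand of LAG-3, 0.0865, 0.0658, 0.144 and 0.0730 RPKM. The ranges of Nectin2 and Lgals9 in the 2 lines overlapped. Tnfrsf14, the ligand of BTLA, was lower in HGS2 (-3.35, SE 0.698, adjusted p = 0.0301), at 115 and 161 counts in 60577 against 16 and 5 in HGS2. It passed the filter on low counts only through 60577, so it could be called in that direction alone. Ceacam1, another proposed ligand of TIM-3, had 43 and 78 counts in 60577 and 0 in HGS2. With HGS2 set to the limit of 3 counts over both libraries (0.0449 CPM) it was 33.2-fold lower. This is no lower bound, as the exact Poisson interval of HGS2 ends at 0.0552 CPM.

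**Figure D5:**
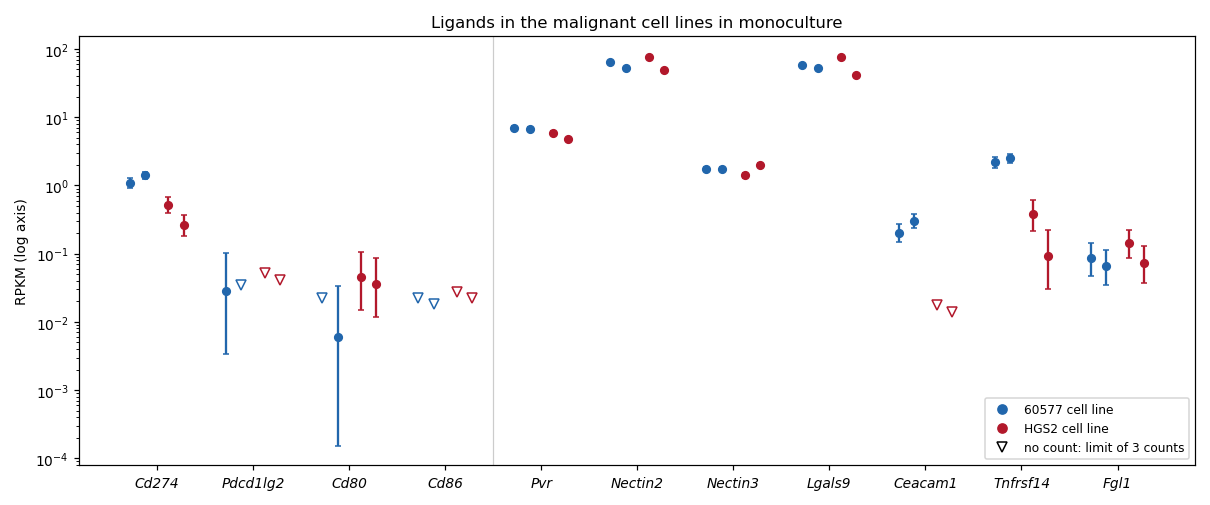
RPKM (log axis) of the 4 ligands, left of the line, and of 7 ligands of the other receptors in the 60577 and HGS2 cell lines, 2 libraries each. Bars are exact 95% Poisson intervals, and open triangles mark libraries with no count, drawn at the level of 3 counts. Nectin2 and Lgals9 lie between 41.3 and 77.4 RPKM in all libraries and Cd274 between 0.261 and 1.40.

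Some receptors had reads in the lines as well. Pdcd1 had 16 and 19 counts in 60577 (0.438 and 0.426 CPM) and 2 and 0 in HGS2. Tigit had 8 and 18 counts in 60577 and 0 in HGS2, 7.14-fold lower with HGS2 set to the same limit, again no lower bound. Lag3 had 34, 33, 18 and 20 counts. Ctla4 had 0 counts in all libraries. 4 of 6 T cell genes (Cd3d, Cd3g, Cd2 and Cd5) were at 0 in the 60577 line and 5 of 6 in HGS2. Of the 7 macrophage genes, 3 were at 0 in 60577 (Adgre1, C1qa and C1qb) and 4 in HGS2 (the same and Fcgr1). The other macrophage genes had reads, and the 7 summed to 2.36 and 4.71 CPM in 60577 and to 1.16 and 3.67 CPM in HGS2. Without a filter on low counts, Pdcd1 (adjusted p = 0.0150) and Tigit (adjusted p = 0.00702) were called lower in HGS2. Of 4 partner receptors tested in the lines 3 were called lower in HGS2, against 15.9% of all genes called in either direction. Cd28 had 19 and 49 counts in 60577 against 0 and 0, Tnfrsf9 71 and 129 against 0 and 1, and Tnfrsf18 43 and 81 against 3 and 1. These 3 passed the filter on low counts only through 60577, so they could be called in that direction alone. Their count therefore cannot be weighed against the share of all genes. Vtcn1, the B7 family ligand B7-H4, went the other way, with 10 and 32 counts in 60577 against 420 and 88 in HGS2 (4.02, adjusted p = 0.0475). It passed the filter only through HGS2, so its direction was likewise fixed. The epithelial genes summed to 4292 and 4557 CPM in 60577 and to 814 and 1383 CPM in HGS2, where Epcam, Krt7, Krt8 and Krt18 were called lower. Epcam, which passed the filter only through 60577, had 0 and 6 counts in HGS2 against 111 and 200 in 60577. Pax8, a marker of the fallopian tube lineage, had 2 and 0 counts in HGS2 and 9 and 12 in 60577. 5 fibroblast genes summed to 11199 and 25608 CPM in HGS2 and to 932 and 1514 CPM in 60577. Keratins were present in HGS2 all the same: Krt19 read 439 and 957 CPM there against 1489 and 1574 CPM in 60577 and was not called.

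Most partner receptors of the checkpoint genes were called higher in treated 60577 tumors. Of 9 partner and costimulatory receptors tested, 7 were called higher at TP1 and 7 at TP2, and 8 were called higher and 1 lower at TP3, with medians of 1.51, 2.96 and 2.80. Over all genes 9.65%, 14.8% and 14.2% were called higher, and 5, 6 and 6 of the 6 T cell genes. The part of T cell RNA in these list counts was not tested. Cd226 (3.88, SE 0.577, adjusted p = 7.55e-05), Cd96 (3.71, SE 0.646, adjusted p = 0.000259) and Cd28 (3.68, SE 0.414, adjusted p = 8.84e-06) changed most at TP2. Cd226 and Cd96 encode receptors that share the ligand PVR with TIGIT. Of 9 transcription factors of T cell exhaustion and memory, 4 were called higher at TP1, 5 at TP2 and 7 at TP3, against the same shares of all genes and the same T cell genes, led at TP2 by Tbx21 (2.91), Eomes (2.78) and Tox (2.28).

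Ligands of the other receptors went in different directions. At TP2 in 60577 Nectin2 fell from 138 to 159 CPM in the controls to 57.8 to 86.3 CPM in the treated tumors (-1.14, SE 0.135, adjusted p = 1.37e-05), and Tnfrsf14 rose from 8.69 to 13.0 CPM to 23.0 to 27.3 CPM (1.17, SE 0.180, adjusted p = 0.000104). The 5 epithelial genes called lower moved with Nectin2, and their part in its fall was not tested. Ceacam1 rose at TP1 (2.04, SE 0.244, adjusted p = 3.98e-05) and was higher at TP3 than in the TP2 controls (1.31, adjusted p = 0.000218). The Pvr change at TP2 differed between the models by 1.16 (SE 0.303, adjusted p = 0.0199). Of 6 other costimulatory ligands tested, Cd40 (2.19) and Icosl (1.79) were called higher and Tnfsf9 (-1.69) lower at TP2 in 60577. No gene of these lists was called in HGS2 between treated and control tumors.

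The genes most alike to each member across tumors are given as a description, by the smaller of the Pearson r over the 17 60577 tumors and over the 16 HGS2 tumors, which share treatment groups and T cell content. For Ctla4 these were Neb (0.96 and 0.98 in 60577 and HGS2), Tnfrsf4 (0.95 and 0.95) and Xlr4c, and for Tigit Sh2d1a (0.96 and 0.93), Xlr4c and Slamf7. Cd274 and Cd80 were among the 3 most alike genes of each other (0.92 and 0.89), beside Naip2 and Samsn1 for Cd274 and Tnfsf14 and Hk3 for Cd80. Cd86 was most like Cxcl9 (0.93 and 0.92), H2-M3 and Slamf8, and Pdcd1lg2 most like Ccdc88b, Pik3cd and Myo3b. Lag3 was most like Rasgrp1, Psme2b and Prex1, Btla like Ehd3, St8sia6 and Swap70, and Havcr2 like Ctsc, Ifnar1 and Sirpb1c. Psme2b, Xlr4c, Naip2 and Sirpb1c have near-identical relatives in the genome, so that their counts are uncertain. Pdcd1 was most like Dna2 (0.83 and 0.79), Cxcl16 and Kcnd1. With the mean of the 6 T cell genes, Pdcd1 gave an r of -0.44 in 60577 and 0.80 in HGS2, while Ctla4 gave 0.96 and 0.85 and Btla 0.97 and 0.49.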

How the data were processed

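RNA sequencing of 34 omental tumors and 4 cell line libraries was deposited as RSEM expected (estimated) counts per gene, one table for tumors and one for cell lines. The authors trimmed reads with Trim Galore 0.6.5, aligned them with STAR 2.7.0f to GRCm38 and estimated counts with RSEM 1.3.1, per the labels and the study's methods. The libraries were strand-specific, but the methods do not say whether reads were counted by strand. Whether the counts of Cd274 and Pdcd1lg2 are separate from the antisense genes over them was not tested. Ctla4 shares its strand with the pseudogene Rpl18-ps1.

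Expected counts were rounded, and genes with at least 1 CPM in 25% of libraries were kept: 16241 in the 33 tumors used, with all 10 members, and 13742 in the lines, with Cd274 alone. Levels are TMM-scaled CPM. RPKM divides these by the exon length in GENCODE M21. Tests used edgeR 4.0.16 (quasi-likelihood, two-sided) in R 4.3.3, fitting the 5 groups of a model together, or 10 groups for comparisons between models. DESeq2 1.42.0, limma-voom (limma 3.58.1), other scalings and filters, offsets for length and GC content, marker covariates, a replicate block and leaving out single libraries were alternatives. The authors' study used limma for tumors and DESeq2 for lines. The test was checked on simulated data. The members and gene lists were chosen with earlier results of these data known. The rule named the 10 members, the called genes among other ligands of the receptors and the 3 genes most alike to each member. From each other list it named at most 3 called genes, by largest change in 60577 at TP2 or between the lines. Ligands not called in the lines and single cell type markers, such as Epcam, Pax8, Krt19, Cd79a and Cd79b, fall outside this rule. They were named with their values known.

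Replicate libraries of every group differed by more than sampling noise. Samples were grouped by the labels. p-values measure the spread between these tumors. The genes of 1 further list are not reported here.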

Additional observations from a re-analysis of the deposited data

Results flagged for a closer look

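Of the 10 members tested for a difference between models in the change with treatment, Btla was the one called: the TP2 treated against control change was lower in HGS2 by -4.84 on the log2 scale (adjusted p = 0.0196 with edgeR). The call was lost with limma-voom, with the replicate block, with the T cell covariate and without 60577 TP2 control replicate 2. Its HGS2 controls ran from 0.964 to 34.5 CPM.

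HGS2 TP3 treated replicate 1, outside the comparisons of the report, lay above all 7 HGS2 controls in 4 receptors. It read 7.44 CPM of Ctla4, against 2.61 CPM in the highest control, and 27.3 CPM of Lag3, against 14.6 CPM. It read 8.42 CPM of Tigit, against 5.06 CPM, and 44.9 CPM of Btla, against 34.5 CPM. Its T cell genes summed to 181 CPM and its B cell genes to 609 CPM, and their part was not tested.

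Of 40 sets checked for a single tumor far from the rest, each 1 gene in 1 group of 4 tumors, 1 was found, where chance alone gives about 1 in 20. Havcr2 read 5.40 CPM in HGS2 TP2 control replicate 2, against 17 to 18.7 CPM in the other 3, and this tumor was rich in acinar RNA.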

How the results depend on the processing

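The number of members called in HGS2 was 0 under every alternative run. In 60577, with the T cell genes as a covariate, it went from 4 to 2 at TP1, 5 to 0 at TP2, 5 to 2 at TP3 and 1 to 0 for TP2 against TP1 treated tumors. With both models fitted together it was 2 at TP1, and 0 for TP2 against TP1 treated and for TP3 against TP2 treated tumors. For TP2 against TP1 treated tumors it was 2 with DESeq2, 2 with limma-voom, 4 with the macrophage covariate and 2 with the acinar covariate. For TP3 against TP2 treated tumors it was 3 with the macrophage covariate, 2 with the acinar covariate and 2 with no limit on the fold. For the difference between models at TP2 it was 0 with limma-voom, 0 with the replicate block and 2 with the T cell covariate. Those 2 were Pdcd1 and Cd274, while Btla was not called in that fit. For controls of the models it was 1 in place of 4 with the macrophage covariate. For the lines it was 3 with no filter, 1 with DESeq2 and 1 with crossed replicate numbers, an alternative chosen after seeing that same-numbered libraries correlated at -0.153. The cause was not tested. Same-numbered tumors of different groups correlated at -0.418 to 0.318 in 60577 and -0.488 to 0.367 in HGS2. Tumors with other numbers correlated at -0.367 to 0.299 and -0.545 to 0.627. The labels do not say what a number stands for, and whether it marks a shared batch was not tested. The replicate block moved no other count by over 1.5 times, but changed the calls of Pdcd1 at TP3 and of Btla and Cd86 between control tumors.

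Leaving out 1 library gave 3 to 6 members at TP1, 4 to 6 at TP2, 4 to 5 at TP3, 0 to 3 for TP2 against TP1 treated and 0 to 1 for TP3 against TP2 treated tumors, 0 to 1 for the TP2 difference between models, 2 to 6 for the controls and 0 to 1 for the lines.

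Directions reversed with the T cell covariate for Btla (-0.0873) and Pdcd1lg2 (-0.33) at TP1, for Lag3 (-0.66), Tigit (-0.56), Pdcd1lg2 (-0.87) and Cd86 (-0.50) at TP2, for Ctla4 (-0.21), Lag3 (-0.76), Tigit (-1.24), Pdcd1lg2 (-2.85) and Cd86 (-0.24) at TP3 and for Tigit (-0.22) between TP2 and TP1 treated tumors. With the macrophage covariate they reversed for Pdcd1lg2 at TP3 (-0.24) and for Havcr2 (-0.24) and Cd86 (-0.36) between control tumors. Pdcd1lg2 between control tumors became 0.11 without the acinar-rich tumors, chosen after seeing the data, and ran from -1.25 (without HGS2 TP1 control replicate 1) to 0.22 (without 60577 TP2 control replicate 1) on leaving out 1 library. Covariates made from markers move with treatment in 60577, so these fits also remove change that the markers share with the treatment.

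Low counts limit the lines, where only Cd274 passed the filter. HGS2 tumors of a group differed widely in some members, such as Btla at 0.964 to 34.5 CPM in the TP2 controls. Whether the absence of calls in HGS2 came from this spread or from a lack of change was not tested.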
